A study of Mus musculus with 8 samples.

Results

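Oxidative phosphorylation genes encoded in the nucleus were followed by complex in sorted sensory neurons of bhlha9 knockout (KO) and wild-type (WT) mice. The members were all genes of the deposited exon count file whose Ensembl mouse symbol begins with Nduf, Uqcr, Cox4 to Cox8 or Atp5, or is Sdha, Sdhb, Sdhc or Sdhd, leaving out symbols that end in -ps or os. The rule uses names only and gave 98 of 55573 genes: 44 of complex I with its Nduf assembly factors, 4 of complex II, 8 of complex III, 20 of complex IV, 18 of complex V and 4 annotated processed pseudogenes. Of these, 94 passed the filter on low counts, and Cox6a2, Cox8b, Cox8c and Ndufa4l2 did not. The rule takes in assembly factors and relatives that are no subunits, and it leaves out subunits with other names such as Cyc1.

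The neurons were C-LTMRs, unmyelinated low-threshold mechanoreceptors of the dorsal root ganglia, sorted by flow cytometry as GFP+ cells from adult mice. The 4 groups were male bhlha9 KO, male WT, female bhlha9 KO and female WT, with 2 libraries each, which the submitters describe as biological replicates. The labels give no allele, strain, age in weeks, GFP driver or number of animals per library. Each library came from 500 pg of total RNA, amplified as full-length cDNA over 13 PCR cycles (SMART-Seq v4) and again over 12 cycles after Nextera XT tagmentation, with no molecular identifiers. Spread between replicates may therefore hold amplification noise as well as differences between animals.

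Complexes I and II pass electrons from NADH and succinate to ubiquinone, complex III passes them on to cytochrome c, and complex IV hands them to oxygen. Complexes I, III and IV pump protons across the inner mitochondrial membrane, and complex V, the ATP synthase, uses the gradient to make ATP. Every complex except complex II combines nuclear subunits with subunits from the mitochondrial genome. Sensory neurons with long axons depend on this pathway for ion pumping and axonal transport. NRF1, ETS family factors such as GABPA, and YY1 are known regulators of its nuclear genes.

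RefSeq promoter windows, of 250 bases before to 50 bases after the start on GRCm38.p6, were found for 76 of the 93 distinct symbols of protein coding members. The core letters of the NRF1 motif, CGCATGCG, which are their own reverse complement, were in 11 of the 76 member windows (14.5%) and in 2.77% of 17492 windows of protein coding genes. The ETS letters CCGGAAGT, on either strand, were in 5 member windows (6.58%) and in 5.69% of all windows. The YY1 letters AAGATGGC, on either strand, were in 11 member windows (14.5%) and in 3.57% of all windows; no motif contains another. At least 1 motif was in 25 member windows (32.9%) and in 11.3% of all windows, as a count of letters and not of binding. The 120 bases before the start are shown for 5 members whose levels differed between the KO libraries of males, 5′ to 3′ on the gene's strand, with the matched motif in capitals. In the bases shown, the first 3 hold the ETS letters and the last 2 the NRF1 letters. The window of Uqcr11 also holds the NRF1 letters, at a place not wholly within the bases shown. Uqcrh lies at chr4:116075071-116075190 (minus strand), Uqcr11 at chr10:80406822-80406941 (minus), Atp5h at chr11:115419920-115420039 (minus), Atp5k at chr5:108434400-108434519 (minus) and Ndufa11 at chr17:56717642-56717761 (plus).
Uqcrh: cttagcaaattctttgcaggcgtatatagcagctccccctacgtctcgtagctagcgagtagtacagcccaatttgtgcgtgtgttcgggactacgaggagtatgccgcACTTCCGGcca
Uqcr11: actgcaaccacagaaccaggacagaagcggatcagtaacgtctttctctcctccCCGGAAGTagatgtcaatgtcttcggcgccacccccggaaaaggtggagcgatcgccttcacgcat
Atp5h: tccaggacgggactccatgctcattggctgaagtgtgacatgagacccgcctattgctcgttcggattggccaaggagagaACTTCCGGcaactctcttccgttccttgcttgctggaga
Atp5k: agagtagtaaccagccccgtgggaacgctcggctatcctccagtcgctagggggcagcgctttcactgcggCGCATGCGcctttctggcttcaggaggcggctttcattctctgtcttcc
Ndufa11: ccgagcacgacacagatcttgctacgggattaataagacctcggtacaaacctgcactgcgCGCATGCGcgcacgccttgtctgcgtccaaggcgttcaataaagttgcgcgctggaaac

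Each library held between 50919885 and 71956309 counts. Bhlha9, the targeted gene, had 0.156 and 0.277 CPM, counts scaled to a common library size, in male KO libraries, against 151 and 161 in male WT, and 0.470 and 0.253 CPM in female KO, against 139.9 and 127 in female WT. Th, the defining catecholamine enzyme gene of C-LTMRs, had between 2976 and 5359 CPM in all libraries. The first male KO library stood apart. Its 9 myelinated afferent markers summed to 6103 CPM and those of the second male KO library to 2187, against 1503 and 1330 in male WT, and 1565 and 1374 CPM in female KO, against 1273 and 1189 in female WT. Nefh, a neurofilament gene of myelinated neurons, had 1551 and 296 CPM in male KO, against 105 and 72.4 in male WT, and all 9 markers of this list were tested, 7 of them above both male WT libraries in the first male KO library. The 8 C-LTMR markers summed to 4515 and 6159 CPM in male KO, against 6989 and 6729 in male WT, and the 9 peptidergic markers to 1517 and 2122 CPM in male KO, against 699.8 and 755.5 in male WT. The male KO libraries were thus below male WT for the first list and above it for the second. In females the peptidergic markers summed to 1566 and 507 CPM in KO, against 1219 and 1995 in WT, and the C-LTMR markers to 6082 and 7627 in KO, against 6900.1 and 5827 in WT. The 7 nonpeptidergic markers, 5 of them tested, summed to 110.2 and 399 CPM in male KO, against 101 and 145 in male WT. Glia markers summed to 5578 and 5743 CPM in male KO, against 5673 and 3644 in male WT. In females they summed to 3407 and 6035 CPM in KO, against 5167 and 5847 in WT. The log2 fold change, KO over WT, was positive for 7 of these 9 markers in males (median 1.13) and 1 in females (-0.47). Of all tested genes, 51.9% were positive in males and 49.0% in females. In the first male KO library 7 of the 9 glia markers lay above both male WT libraries. Vascular and fibroblast markers summed to 63.5 and 21.03 CPM in male KO, against 15.04 and 2.86 in male WT, and to 1.66 and 11.4 CPM in female KO, against 34.2 and 46.1 in female WT, while immune markers stayed between 11.8 and 26.5 CPM in all libraries and red blood cell markers between 0.225 and 20.6 CPM. The sums of vascular and fibroblast markers were thus higher in KO than in WT in males and lower in females. Log2 fold changes were positive for all 6 markers in males and for 0 in females. Single libraries overlapped in some markers, as for Col1a2 in females, with 0.587 and 8.36 CPM in KO, against 3.71 and 20.1 in WT. The part of these other cell types in the results below was not tested. In bulk libraries, more cells of a type and more RNA of a gene per cell cannot be told apart.

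Taken over all members, the nuclear oxidative phosphorylation genes made up 2.42% and 1.69% of the scaled library in male KO, against 1.95% and 1.72% in male WT. In females they made up 2.29% and 2.05% in KO, against 2.33% and 2.31% in WT. The highest and the lowest share of all 8 libraries were thus the 2 male KO libraries, and both female KO libraries lay below both female WT libraries. Complex I summed to 8467 and 5308 CPM in male KO, against 6345 and 5574 in male WT, and to 7838 and 6726 in female KO, against 7904 and 8037 in female WT. Complex IV summed to 5771 and 2982 CPM in male KO, against 3919 and 3308 in male WT, and to 5342 and 4319 in female KO, against 5532 and 5284 in female WT. The 2 male KO libraries thus lay on either side of both male WT libraries for these 2 proton pumps. Complex III did the same, with 2542 and 1591 CPM in male KO, against 1911 and 1628 in male WT. It summed to 2250.0 and 1910 CPM in female KO, against 2161 and 2108 in female WT.

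Complexes II and V, which hand over electrons from succinate and make the ATP, varied less in sum. Complex II summed to 791 and 992 CPM in male KO, against 998 and 844 in male WT, and to 879 and 1002 in female KO, against 935 and 886 in female WT. For complex V the sums were 6444 and 5945 CPM in male KO, against 6185 and 5751 in male WT, and 6390.5 and 6425 in female KO, against 6610.1 and 6681 in female WT. Complex II was the only complex with the first male KO library below the second. Complex IV made up 23.9% and 17.7% of the members' CPM in male KO, against 20.1% and 19.2% in male WT. Complex V made up 26.6% and 35.2% in male KO, against 31.8% and 33.5% in male WT. Within a sex, with 2 libraries a group, no permutation test of a summed value can reach the threshold of 0.05, and the sums were not tested.

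**Figure D1:**
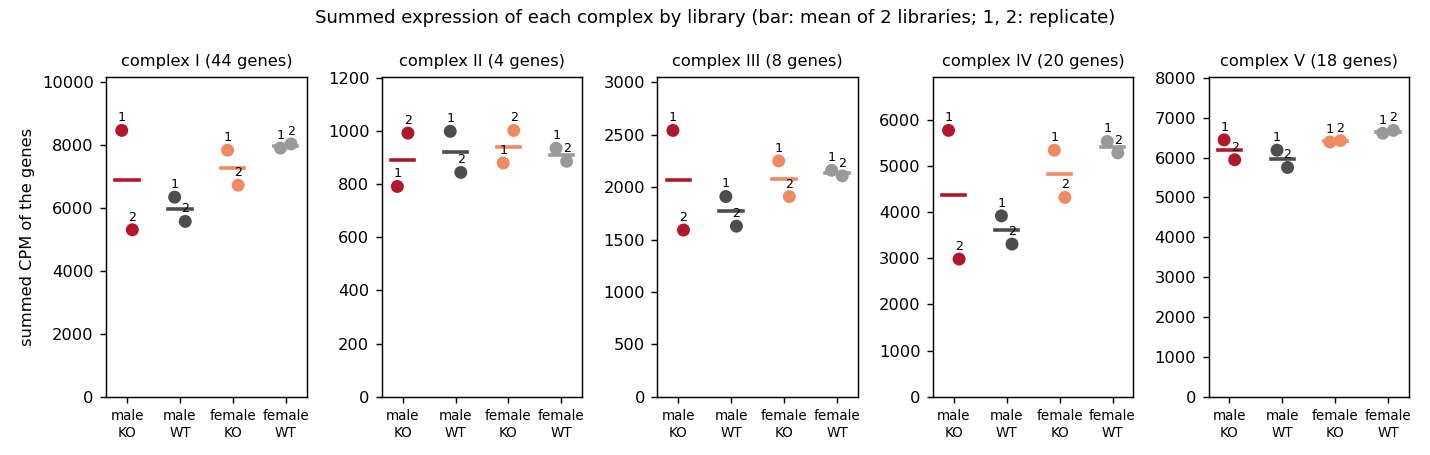
Summed CPM (vertical axis from 0) of the genes of each complex in every library, with KO left of WT in each sex; points are libraries marked by replicate number and bars are means of 2 libraries. In complexes I, III and IV the first male KO library is the highest of all 8 and the second is the lowest.

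No member passed in any comparison. In the quasi-likelihood test of edgeR, 0 of 94 tested members had an adjusted p under 0.05 in KO against WT in males, where 0.00454% of all 22013 tested genes did, and 0 in females, where 0.00454% did. KO against WT over both sexes also gave 0 members, with 0.00454% of all genes, and the difference between the sexes gave 0 members, with 0.0% of all genes. The 1 gene passing in each of the first 3 comparisons was Bhlha9. No member had an unadjusted p under 0.05 in these 4 comparisons, where 3.5%, 3.81%, 3.56% and 4.73% of all tested genes did, in the order given. The lowest unadjusted edgeR p of a member was 0.0881 in males, for Ndufa10. DESeq2 gave 0 members as well, with 203 genes passing in males (0.978%), 236 in females (1.2%), 161 over both sexes (0.716%) and 284 in the difference between the sexes (1.41%), and no member had an unadjusted p under 0.05 there. The authors' deposited tables of genes past 5% list no member for males or for females. For the 88 members with a mean of at least 5 CPM, the standard error of the log2 fold change had a median of 0.31 in males and in females, with a range of 0.16 to 0.61 in both. Their log2 fold changes, KO over WT, lay between -0.26 and 0.67 in males and between -0.45 and 0.35 in females. The standard errors come from the fit of all 8 libraries, so they pool the spread of the 4 groups.

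Complex I begins at the NADH-oxidizing arm, whose electron transfer core comprises 7 nuclear subunits. Per kb of the Length column, which is the union of all annotated exons of a gene, Ndufs7 was the most abundant of them and Ndufs1 the least, with means of 178 and 13.6 CPM per kb over the 8 libraries. Ndufs7, an iron-sulfur subunit next to the ubiquinone site, had 330.2 and 243 CPM in male KO, against 297 and 210.0 in male WT, and 310.1 and 303 CPM in female KO, against 387 and 359 in female WT. Both female KO libraries lay below both female WT libraries for Ndufs7, and the male groups overlapped. Ndufs8, its iron-sulfur neighbour, had 254 and 167 CPM in male KO, against 202 and 161 in male WT, and 218 and 186 CPM in female KO, against 237 and 254 in female WT. Here too both female KO libraries lay below both female WT libraries, as in 15.1% of all tested genes.

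Ndufs1, the largest iron-sulfur subunit of the arm, ran the other way between the KO libraries. It had 102 and 139.8 CPM in male KO, against 132 and 120.5 in male WT, and 84.5 and 105 CPM in female KO, against 101 and 92.2 in female WT. Ndufv1, which binds NADH, had 342 and 423 CPM in male KO, against 404 and 394 in male WT, and 367 and 466 CPM in female KO, against 465 and 396 in female WT. In both genes and in both sexes the second KO library was above both WT libraries and the first was below both. Of all tested genes, 11.3% had this order in males and 7.4% in females. Ndufv2, the partner of Ndufv1, had the first KO library above the second in each sex. It had 253 and 167 CPM in male KO, against 171 and 168 in male WT. In females it had 209 and 179.8 CPM in KO, against 197 and 246 in WT. Ndufs3 had 52.9 and 53.9 CPM in male KO, against 64.3 and 47.5 in male WT, and 52.4 and 63.1 CPM in female KO, against 51.2 and 72.5 in female WT. The median log2 fold change of the 7 core subunits was 0.06 in males, with 4 positive, and -0.10 in females, with 0 positive.

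The 29 accessory subunits of complex I, which surround the core without carrying electrons, summed to 6491 and 3571 CPM in male KO, against 4480.4 and 3905 in male WT. Their sum was 6035 and 4800.0 CPM in female KO, against 5852 and 5981 in female WT. Ndufa1, a small subunit at the junction of the arms, was the most abundant per kb, with a mean of 455 CPM per kb. It had 272 and 109 CPM in male KO, against 152 and 138 in male WT, and 229.8 and 179 CPM in female KO, against 224 and 221 in female WT. The first male KO library was the highest of all 8 for Ndufa1 and the second the lowest. In 18 of the 29 accessory subunits the first male KO library lay above both male WT libraries and the second below both. The reverse held in 0 of them. Of all tested genes, 12.6% had the first order and 11.3% the reverse.

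Ndufa10 was the only accessory subunit with both male KO libraries above both male WT libraries, an order found in 14.5% of all tested genes. It had 316 and 325 CPM in male KO, against 284 and 234 in male WT, and 280.2 and 297 CPM in female KO, against 302 and 291 in female WT. Its log2 fold change in males was 0.31 ± 0.16 (SE, n = 2 libraries a group), with an edgeR adjusted p of 1.0. Ndufa13, a membrane arm subunit also known as GRIM-19, had the most negative log2 fold change of the accessory subunits in females. It had 247 and 204 CPM in female KO, against 301 and 269 in female WT, and 282 and 157 CPM in male KO, against 211 and 155 in male WT. The difference in females was -0.34 ± 0.30 on the log2 scale (SE, n = 2 a group; edgeR adjusted p = 1.0), and 30.0% of its exon bases are shared with exons of Tssk6, so reads there count for both genes. Ndufb4 had 7.82 and 3.78 CPM in male KO, against 3.60 and 3.85 in male WT, and 6.70 and 5.45 CPM in female KO, against 6.18 and 7.67 in female WT. Its level is uncertain because a count of unique alignments can lose reads to near-identical copies, and the member Ndufb4c is annotated as a related pseudogene. The log2 fold change of Ndufb4 in males was 0.64 ± 0.49 (SE, n = 2 a group; edgeR adjusted p = 1.0), and 0.02 without the first male KO library.

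The 8 Nduf assembly factors, which help to build complex I and are not part of the finished enzyme, were expressed at lower levels, between 6.43 and 43.9 CPM per kb. Ndufaf3 had the highest and Ndufaf4 the lowest of these means. Ndufaf1 acts on the membrane arm. Alone of all members, it had both male KO libraries below both male WT libraries, against 14.5% of all tested genes. It had 39.1 and 39.8 CPM in male KO, against 43.8 and 41.6 in male WT, a log2 fold change of -0.11 ± 0.41 (SE, n = 2 a group; edgeR adjusted p = 1.0). In females it had 16.5 and 40.8 CPM in KO, against 19.8 and 25.3 in WT, and the second KO library alone carried the positive log2 fold change of 0.35 ± 0.41 (edgeR adjusted p = 1.0, SE). Ndufaf3 had 66.3 and 65.7 CPM in male KO, against 95.2 and 62.8 in male WT, and 77.02 and 82.7 CPM in female KO, against 94.3 and 93.04 in female WT. Its log2 fold change in males, -0.26 ± 0.22 (SE; edgeR adjusted p = 1.0), was the most negative of the members with at least 5 CPM. Ndufaf6 followed, with 22.5 and 11.2 CPM in male KO, against 22.6 and 15.05 in male WT, and -0.16 ± 0.42 (SE; edgeR adjusted p = 1.0). Ndufaf4 had 25.6 and 22 CPM in male KO, against 27.6 and 22.6 in male WT, and 32.5 and 20.4 CPM in female KO, against 29.9 and 20.02 in female WT. The first library was the higher one in each of these 4 groups.

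Complex II, or succinate dehydrogenase, also serves the tricarboxylic acid cycle and is wholly encoded in the nucleus. Sdha, its flavoprotein, differed more between the male KO libraries than any other complex II gene. It had 147 and 348 CPM in male KO, against 259 and 278 in male WT, and 188 and 283 CPM in female KO, against 212 and 164 in female WT. The male KO libraries held the lowest and the highest value of all 8 for Sdha, in the reverse order of most members. Its log2 fold change in females was 0.33 ± 0.41 (SE, n = 2 a group; edgeR adjusted p = 1.0), and the female groups overlapped. Sdhb, the iron-sulfur subunit, had 354 and 335 CPM in male KO, against 421 and 299.7 in male WT, and 362 and 395 CPM in female KO, against 411 and 403 in female WT. Both female KO libraries lay below both female WT libraries for Sdhb, as in 15.1% of all tested genes. Sdhd and Sdhc, the membrane anchors, were the most and the least abundant per kb of Length, with means of 193 and 21.99 CPM per kb. Length can exceed the length of a gene's main transcript, as in Sdhb with 2239 against 1142 bases. Ranks per kb, here and in the other complexes, therefore depend on the length used. Sdhd had 268 and 243 CPM in female KO, against 220.3 and 240.1 in female WT. Both female KO libraries were thus above both female WT libraries, as in 14.2% of all tested genes. In males Sdhd had 233 and 239 CPM in KO, against 247 and 205 in WT. The female difference in Sdhd was 0.15 ± 0.16 on the log2 scale (SE, n = 2 a group; edgeR adjusted p = 1.0). Sdhc had 56.9 and 69.2 CPM in male KO, against 71.7 and 61.1 in male WT, and 60.9 and 81.2 CPM in female KO, against 91.7 and 79.1 in female WT.

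In complex III, the cytochrome bc1 complex, the male KO libraries lay further apart in the small subunits described first than in the large ones. Uqcrh, the hinge protein near cytochrome c1, had the largest log2 fold change in males of members with at least 5 CPM. It had 321 and 120.3 CPM in male KO, against 124 and 154 in male WT, and 272 and 189 CPM in female KO, against 250.1 and 244 in female WT. The male log2 fold change of 0.67 ± 0.44 (SE, n = 2 a group; edgeR adjusted p = 1.0) came from the first KO library, since the second lay below both WT libraries. Uqcr11, a subunit of the membrane part and the most abundant per kb, had 344 and 114 CPM in male KO, against 165 and 146 in male WT, and 317 and 206 CPM in female KO, against 275 and 236 in female WT. The male KO libraries again lay on both sides of the WT libraries.

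The core proteins of complex III and the Rieske protein had smaller gaps between the male KO libraries. Uqcrc1 had 669 and 626 CPM in male KO, against 737 and 576 in male WT, and 499 and 624 CPM in female KO, against 537 and 519 in female WT. Uqcrfs1, the Rieske iron-sulfur protein, had 218 and 209 CPM in male KO, against 240.1 and 187 in male WT, and 229 and 199 CPM in female KO, against 215 and 204 in female WT. Uqcrc2, the other core protein, was the 1 member with both KO libraries above both WT libraries in males and below both in females, an arrangement found in 2.63% of all tested genes. It had 149.6 and 149 CPM in male KO, against 135 and 118 in male WT, and 116 and 133 CPM in female KO, against 138 and 145 in female WT. The log2 fold change was 0.24 ± 0.16 in males and -0.19 ± 0.16 in females (SE, n = 2 a group). The test of the difference between the sexes gave 0.43 ± 0.23 on the log2 scale (SE), with an unadjusted p of 0.101 and an adjusted p of 0.99 in edgeR. Its exons share 19.7% of their bases with Pdzd9.

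Complex IV, cytochrome c oxidase, held the most abundant members per kb. Cox8a, a small subunit of the membrane part, had a mean of 1089 CPM per kb, above Cox6a1 with 997 and Cox6b1 with 729.6. It had 761 and 479.8 CPM in male KO, against 561 and 476 in male WT, and 701 and 674 CPM in female KO, against 954 and 785 in female WT. Both female KO libraries lay below both female WT libraries, and the log2 fold change was -0.34 ± 0.24 (SE, n = 2 a group; edgeR adjusted p = 1.0). Cox6a1 shared that order in females, found in 15.1% of all tested genes, with 757 and 670.0 CPM in KO, against 929 and 794 in WT. In males it had 785 and 498 CPM in KO, against 675 and 492 in WT. Cox4i1, the regulatory subunit that binds ATP, had 978 and 445 CPM in male KO, against 676 and 564 in male WT, and 883 and 653 CPM in female KO, against 774 and 822 in female WT. Of all tested genes, 50.0% were higher in the first KO library in males and 50.8% in females. All 11 common subunits of complex IV were higher in the first than in the second KO library in each sex. Ndufa4, named after complex I and now counted with complex IV, was among them, with 661 and 314 CPM in male KO, against 399 and 369.6 in male WT, and 609.8 and 437 CPM in female KO, against 526 and 609 in female WT. Cox7c was listed at 18.4 and 5.52 CPM in male KO, against 8.23 and 8.33 in male WT, and 16.2 and 11.97 CPM in female KO, against 12.5 and 12.6 in female WT, levels that are uncertain where near-identical copies take reads out of a count of unique alignments.

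Several complex IV subunits exist as a widely expressed form and a form known from muscle, lung or testis, and the C-LTMR libraries held the wide form in each set. Cox4i2, known from lung, had at most 0.484 CPM per kb in any library, where Cox4i1 had at least 287. Cox6a2 and Cox8b, forms of heart and skeletal muscle, had counts in 1 library (0.277 CPM per kb) and in 0 libraries, where Cox6a1 had at least 701 and Cox8a at least 769 CPM per kb. Cox7a1, the muscle form beside Cox7a2, had 2.27 and 0.447 CPM in male KO, against 0.476 and 0.314 in male WT, and 1.59 and 0.927 CPM in female KO, against 1.48 and 1.68 in female WT. Cox7a2 itself had 510.4 and 200.3 CPM in male KO, against 275 and 251 in male WT, and 457 and 344 CPM in female KO, against 452 and 436 in female WT. The testis forms Cox6b2, Cox7b2 and Cox8c reached at most 0.515, 4.27 and 0.172 CPM per kb, where Cox6b1 and Cox7b had at least 474 and 122. Ndufa4l2, known as a target of low oxygen signalling, reached at most 0.42 CPM per kb. Cox7a2l, which joins complexes III and IV into supercomplexes, varied little, with 99.7 and 86.5 CPM in male KO, against 86.8 and 85.2 in male WT, and 105 and 106 CPM in female KO, against 118 and 119 in female WT. A count of 0 in a library leaves up to 3 counts undetected, between 0.0421 and 0.0587 CPM, by counting error alone.

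**Figure D2:**
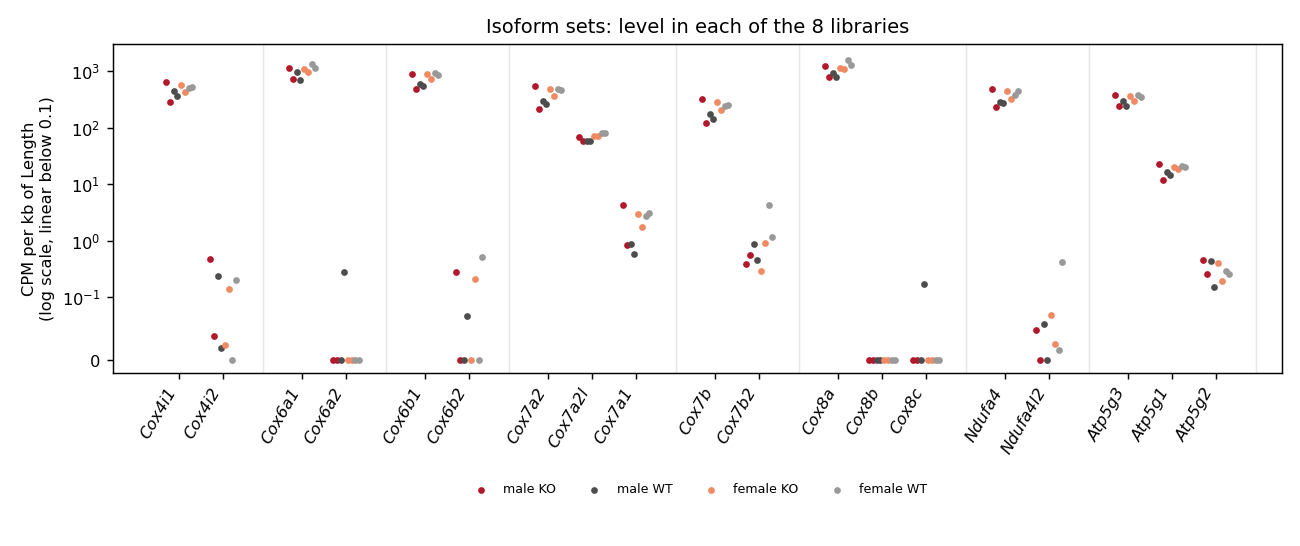
Level of each isoform in CPM per kb of Length (vertical axis, log scale that is linear below 0.1) in the 8 libraries, coloured by group, with KO left of WT. The widely expressed form of each complex IV set lies above its relatives in every library, and Atp5g3 lies above Atp5g1 and Atp5g2 in all 8.

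Complex V divides into the F1 head with its stalks and the membrane part with the c ring. Atp5b, the catalytic beta subunit, was the most abundant gene of complex V per kb, with a mean of 484 CPM per kb. It had 1719.9 and 2299.8 CPM in male KO, against 2193 and 2174 in male WT, and 1792 and 2150.0 CPM in female KO, against 1864 and 2223 in female WT. Its log2 fold change in males was -0.12 ± 0.19 (SE, n = 2 a group; edgeR adjusted p = 1.0). The first male KO library was the lowest of all 8 for Atp5b and the second the highest. Atp5a1, the alpha subunit beside it, had 742 and 1103 CPM in male KO, against 956 and 958 in male WT, and 816 and 985 CPM in female KO, against 877 and 734 in female WT. The 10 head and stalk genes together summed to 4553 and 4947 CPM in male KO, against 4940 and 4657 in male WT. Atp5f1, subunit b of the outer stalk, had both female KO libraries above both WT libraries, as did 14.2% of all tested genes. It had 276 and 241 CPM in female KO, against 211 and 226 in female WT. In males it had 281 and 201 CPM in KO, against 244 and 212 in WT. Its log2 fold change in females was 0.24 ± 0.20 (SE, n = 2 a group; edgeR adjusted p = 1.0). Atp5h, subunit d and the least abundant of the head and stalk genes per kb, had 88.3 and 37.6 CPM in male KO, against 55.6 and 49.04 in male WT, and 73.3 and 59.5 CPM in female KO, against 74.6 and 69.4 in female WT.

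For the c ring and membrane genes of complex V, the male KO libraries lay on both sides of the male WT libraries in sum. Their 7 genes summed to 1871 and 954 CPM in male KO, against 1215 and 1074 in male WT, and to 1813 and 1373 in female KO, against 1755 and 1591 in female WT. Genes Atp5g1, Atp5g2 and Atp5g3 encode the same mature c subunit. Atp5g3 had the highest level of the 3 per kb, with 838 and 523 CPM in male KO, against 638 and 533 in male WT, and 788 and 654 CPM in female KO, against 810.1 and 745 in female WT. Atp5g1 had 112 and 58.3 CPM in male KO, against 80.6 and 72.4 in male WT, and 98.2 and 92.4 CPM in female KO, against 105 and 101 in female WT, and Atp5g2 at most 0.78 CPM in any library. The levels of these genes are uncertain where near-identical copies take reads out of a count of unique alignments, and Gapdh, a gene used by every cell and known for many such copies, was listed at 9.87 to 17.7 CPM. Per kb, the means were 317, 18.3 and 0.309 CPM per kb for Atp5g3, Atp5g1 and Atp5g2. Atp5k, subunit e, had 116 and 41.1 CPM in male KO, against 58.9 and 53.4 in male WT, and 103 and 77.4 CPM in female KO, against 90.6 and 91.6 in female WT. Atp5s, a coupling factor and no core subunit, had the most negative log2 fold change in females of members with at least 5 CPM, -0.45 ± 0.61 (SE, n = 2 a group; edgeR adjusted p = 1.0). Its values were 20.1 and 15.6 CPM in female KO, against 37.4 and 11.4 in female WT, so the first WT library alone set the direction, and 19.6 and 43.2 CPM in male KO, against 29.3 and 20.8 in male WT.

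Some members are uncertain as single genes. Atp5o stands in the file under 2 identifiers, and all exon bases of the second are shared with other genes, so its counts are in part the same reads. In 13 members, more than 10% of the exon bases lie in exons of other genes, with 65.6% in Ndufaf2 and all of them in the second Atp5o identifier. The 4 annotated pseudogenes had counts of their own: Cox6c2 had 90.8 and 33.7 CPM in male KO, against 51.1 and 43.3 in male WT, and 87.3 and 55.6 CPM in female KO, against 75.6 and 77.8 in female WT. Ndufb4c had 26.2 and 9.34 CPM in male KO, against 12.2 and 11.02 in male WT, and a male log2 fold change of 0.61 ± 0.52 (SE; edgeR adjusted p = 1.0). Ndufa11b, the least abundant pseudogene per kb, had 20.6 and 9.40 CPM in male KO, against 12.5 and 11.1 in male WT, and 18.3 and 12.98 CPM in female KO, against 19.1 and 19.6 in female WT. Atp5l, subunit g of the membrane part, was listed at 2.87 to 5.68 CPM and also has near-identical copies in the genome.

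By role, log2 fold changes in males were positive for 74 of 94 tested members, with a median of 0.24, while 51.9% of all tested genes were positive and their median was 0.02. All 11 common complex IV subunits (median 0.33), 28 of 29 complex I accessory subunits (0.26), 6 of 8 complex III genes (0.30) and 6 of 7 c ring and membrane genes (0.28) were positive. Only 1 of 4 complex II genes (median -0.07), 3 of 8 assembly factors (-0.09) and 6 of 10 head and stalk genes (0.09) were. Without the first male KO library the male median was -0.22, with 18 of 94 positive, and without the second it was 0.56, with 80 positive. The male median therefore rests on which KO library is kept.

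In females, 19 of 94 members had a positive log2 fold change, with a median of -0.11, against 49.0% and a median of 0.0 for all tested genes. The vascular and fibroblast markers given above were also lower in sum in both female KO libraries than in both female WT libraries. The peptidergic sums overlapped, with 1566 and 507 CPM in female KO, against 1219 and 1995 in female WT. The part of these cell types was not tested. Both female KO libraries lay below both female WT libraries in 22 members (23.4%), against 15.1% of all tested genes, and above in 2, Sdhd and Atp5f1, against 14.2%. The 22 spanned all complexes, among them Ndufa2, Ndufa3, Ndufa9, Ndufa13, Ndufb7, Ndufb11, Ndufs7 and Ndufs8 of complex I, Cox5a, Cox6a1 and Cox8a of complex IV, and Atp5d, Atp5j and Atp5g1 of complex V. With 1 library left out at a time, the female median ranged from -0.26 to 0.0. It was 0.0 without the second female KO library, with 45 of 94 positive, and -0.26 without the first, with 16 positive. The size of the female median therefore also rests on which KO library is kept. Over both sexes the median was 0.07, with 69 of 94 positive, against 51.4% of all genes. Without the first male KO library it was -0.15, with 12 positive, and without the second male WT library 0.0, with 44 positive. The difference between the sexes, males minus females, had a median of 0.41, with 80 of 94 positive, against 51.3% of all genes, and without the first male KO library it was -0.10.

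**Figure D3:**
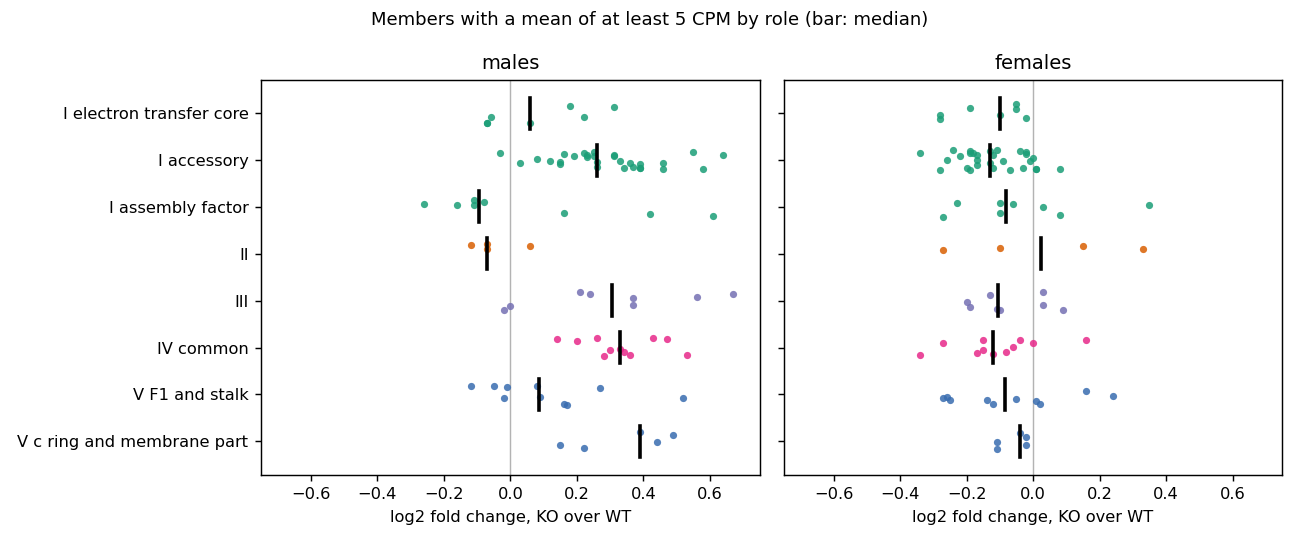
Log2 fold change of KO over WT (horizontal axis) in males and in females for members with a mean of at least 5 CPM, by role; each point is a gene and bars are medians. Complex IV common subunits lie right of 0 in males, from 0.14 to 0.53, and complex II lies around 0, while most points lie left of 0 in females.

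Replicates of male KO differed most, and the first of them is the library with the high myelinated afferent markers, whose part was not tested. For the 88 members with at least 5 CPM, the median fold between the 2 libraries of a group was 1.82 in male KO, against 1.14 in male WT, and 1.23 in female KO, against 1.08 in female WT. In 49 of 94 members (52.1%) the first male KO library lay above both male WT libraries and the second below both, an arrangement found in 12.6% of all tested genes and in 13.0% of the 7613 genes with at least 20 CPM. The reverse held in 6 members, Ndufs1, Ndufv1, Sdha, Atp5a1, Atp5b and Atp5s, against 11.3% of all tested genes. The first male KO library was the highest of all 8 in 47 members, against 16.8% of all tested genes, and the second the lowest in 52, against 18.0%. Both at once held in 32 members (34.0%), against 4.81%. Both male KO libraries lay above both male WT libraries in 2 members, against 14.5%, and below in 1, against 14.5%.

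In females the first KO library was also the higher one in most members, but fewer lay on either side of WT. It lay above both female WT libraries and the second below both in 32 members (34.0%), against 9.26% of all tested genes, and the reverse held in 5, among them Ndufaf1, Ndufs1, Ndufv1 and Uqcrc1, against 7.4%. The first KO library was higher than the second in 80 of 94 members in males, against 50.0% of all tested genes, and in 69 in females, against 50.8%. Across the 88 members with at least 5 CPM, the difference between the KO libraries in males and that in females had a Pearson r of 0.71 and a Spearman rho of 0.75. These are 88 genes of the same 4 libraries and no independent samples. As centred log2 CPM, each gene minus its own mean over the 8 libraries, the members' median was 0.34 and -0.51 in male KO, against -0.16 and -0.35 in male WT. It was 0.24 and 0.0 in female KO, against 0.24 and 0.24 in female WT, and the medians of all tested genes lay between -0.01 and 0.07. Male WT libraries thus lay below female WT libraries, a contrast of sexes that was not tested.

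**Figure D4:**
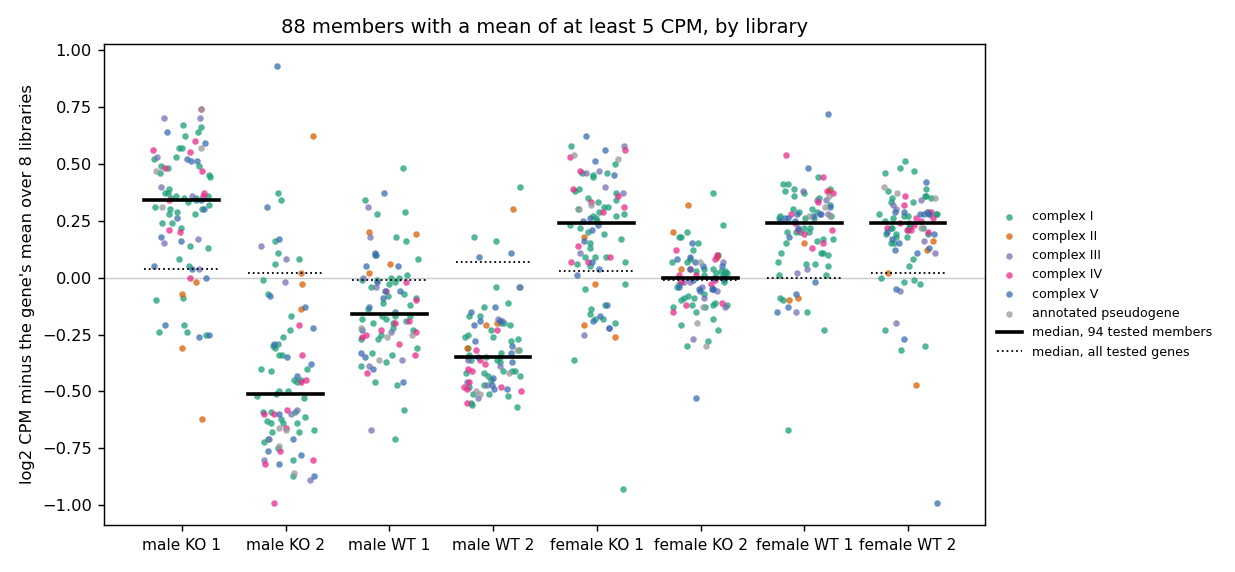
Log2 CPM of each member minus its mean over the 8 libraries (vertical axis) for the 88 members with a mean of at least 5 CPM, in each library; solid bars are medians of all 94 tested members and dotted bars medians of all tested genes. The first male KO library has the highest member median, 0.34, and the second the lowest, -0.51, while the medians of all genes stay near 0.

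By role, the gap between the male KO libraries took a wide range of values. As a difference of log2 CPM, first minus second, its median was 1.07 in the common complex IV subunits, 0.98 in complex III, 0.94 in the c ring and membrane genes and 0.87 in the complex I accessory subunits. It was 0.58 in the assembly factors, 0.34 in the head and stalk genes of complex V, 0.09 in the complex I core and -0.16 in complex II. The remaining genes are the 5 tested isoforms and relatives of complex IV, 4 of them under 5 CPM, with 2.26, the 4 pseudogenes, with 1.28, and Atp5s, with -1.14. The coding sequences of the common complex IV subunits ranged from 189 bases in Cox7c to 507 in Cox4i1. Groups with smaller gaps mixed lengths, as in the head and stalk genes, from 156 in Atp5e to 1659 in Atp5a1. By the Length column, the median gap was 1.16 in the 14 members under 700 bases. It was 0.97 in the 28 members of 700 to 1400 and 0.56 in the 52 members over 1400. For genes with at least 20 CPM outside the members, the medians of these classes were 0.55, 0.35 and -0.14.

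Coding length, taken from the principal transcript in the GENCODE M21 annotation and chosen as a measure after the data were seen, separated the members further. The median gap between the male KO libraries was 1.01 in the 47 members under 450 coding bases, of which 46 were positive, 0.54 in the 28 members of 450 to 900, and -0.04 in the 15 members over 900, of which 6 were positive. Other genes with at least 20 CPM had medians of 0.43, 0.02 and -0.20 in these classes, so the median of short genes outside the members had the same sign, and the members' medians were further from 0 in the 2 shorter classes. Across the 84 members with a coding length and at least 5 CPM, the gap had a Pearson r of -0.76 and a Spearman rho of -0.75 with log2 coding length. For the female KO libraries the same r was -0.70 and rho -0.69. With the male log2 fold change, r was -0.67 and rho -0.69, and with the female one 0.17 and 0.05. These values describe genes measured in the same libraries.

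**Figure D5:**
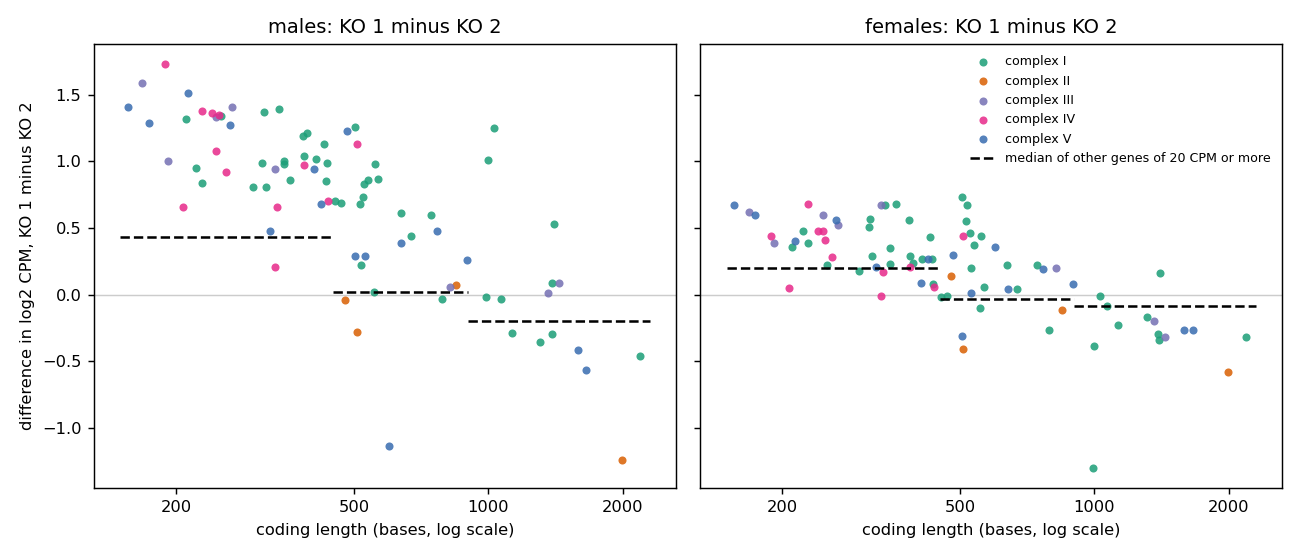
Difference in log2 CPM between the first and the second KO library (vertical axis) against coding length in bases (log scale) for members with a mean of at least 5 CPM, in males and in females; dashed lines are medians of other genes with at least 20 CPM in 3 classes of coding length. Most short members lie above the line in males, with a class median of 1.01 against 0.43, and members over 900 bases lie on both sides of 0.

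Genes around the complexes were counted from lists, and 0 of them passed in any of the 4 comparisons. Of 39 assembly factors outside the symbol rule, 21 had a positive log2 fold change in males (median 0.11) and 18 in females (-0.03). The 13 tricarboxylic acid cycle genes had medians of 0.07 in males, with 9 positive, and 0.06 in females, with 8 positive, and the 16 glycolysis genes -0.06 and 0.01, with 6 and 9 positive. Summed glycolysis was 11233 and 13369 CPM in male KO, against 12919 and 12325 in male WT, so here the second male KO library was the higher one. The median difference between the male KO libraries, first minus second, was -0.41 in glycolysis, -0.25 in the tricarboxylic acid cycle and 0.27 in the assembly factors, against 0.85 over the members. Ubiquinone synthesis genes had 7 of 11 positive in males (median 0.16) and 7 in females (0.25). Of the 6 adenine nucleotide carriers and porins, 3 were positive in each sex (medians 0.01 and 0.0).

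Cyc1, the cytochrome c1 subunit of complex III that the symbol rule misses, had 502 and 378 CPM in male KO, against 477 and 393 in male WT, and 431 and 454 CPM in female KO, against 469 and 459 in female WT. Among the 12 regulators of mitochondrial gene expression, 6 had a positive log2 fold change in males (median 0.05) and 7 in females (0.16). Nrf1 had 4.49 and 19.6 CPM in male KO, against 13.3 and 13.00 in male WT, and 6.89 and 9.31 CPM in female KO, against 3.71 and 5.45 in female WT. Gabpa had 33.6 and 45.7 CPM in male KO, against 40.2 and 46.5 in male WT, and 53.96 and 51.8 CPM in female KO, against 51.3 and 43.9 in female WT. The second male KO library was the higher one for both factors. Of the 12 regulators, 4 were higher in the first male KO library. Among these were Ppargc1a, with 19.5 and 11.4 CPM in male KO, and Esrra, with 26.5 and 14.4. The 13 subunits encoded in the mitochondrial genome had 0 counts in all 8 libraries, so nuclear and mitochondrial subunits of a complex could not be compared here.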

How the data were processed

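The deposited exon count file holds whole-number counts per gene for 8 libraries, per the file headers. The counter was featureCounts 1.6.1 with the Ensembl annotation of GRCm38, release 97, per the file headers. Reads that overlap several genes were counted in each, without regard to strand, on files named as unique alignments to mm10, per the file headers. No source used here names an aligner. The submitters' processing notes name bcl2fastq 2.17.1.14, Subread 1.6.4 and DESeq2 1.14.1. The authors' deposited tables for each sex hold a mean normalized count signal, a log2 fold change with its error, a test score, and p-values, per the file headers; they were used only to look for members.

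Genes were filtered with filterByExpr, leaving 22013, and scaled by TMM with factors of 0.9793 to 1.022. CPM values use these scaled sizes, and log2 CPM a prior count of 2. Groups were compared with the two-sided quasi-likelihood F test of edgeR 4.0.16 (R 4.3.3, robust), over all 8 libraries with 4 residual degrees of freedom and a biological coefficient of variation of 76.6%, with Benjamini-Hochberg adjustment over all tested genes at 0.05. Both sexes together were fitted with sex as a covariate. Each SE was derived from the log2 fold change and the F statistic of these fits. It thus holds spread pooled over all 8 libraries and moderated across genes, and not only that of the libraries compared. Alternatives were DESeq2 1.42.0, RLE factors, no filter, each sex alone, a replicate block and each library left out.

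Genes are named by a rule: members past the threshold, the most and least abundant per role, the 3 largest log2 fold changes in each direction per sex among members with at least 5 CPM, isoform sets and the catalytic cores; a few others that had a distinct order of libraries, or that a promoter is shown for, were chosen after their values were seen. Symbols, coding lengths and exon overlaps are from GENCODE M21, whose coordinates were identical for all 98 members. Promoters are from RefSeq. Members and lists were chosen with earlier results of these data known. Libraries held at least 50919885 counts.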

Additional observations from a re-analysis of the deposited data

How the results depend on the processing

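No member passed in any comparison under DESeq2, RLE factors, no filter, a replicate block, each sex alone, or with any 1 library left out. Over all genes, DESeq2 passed 203 in males, 236 in females, 161 over both sexes and 284 for the difference between the sexes. The edgeR counts were 1, 1, 1 and 0, and each sex alone passed 0 in males and 0 in females. The cause was not tested. Bhlha9 itself thus did not pass with each sex alone, so 0 members passing there says little about the members. No label ties the replicate numbers of KO and WT libraries. Over all tested genes, the first minus the second library had an r between KO and WT of -0.01 in males and 0.0 in females. Over all 6 pairs of groups r lay from -0.10 to 0.11, highest between the KO groups of both sexes. For the 88 members with at least 5 CPM, r between those KO groups was 0.71. Whether libraries of the same number shared a batch was not tested. With a replicate block the members' median log2 fold change was 0.22 in males and -0.14 in females. In that fit 0 genes passed in females, so Bhlha9 did not pass there.

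With 1 library left out in turn, the members' median ranged from -0.22 to 0.56 in males, the lowest without the first male KO library, from -0.15 to 0.18 over both sexes and from -0.10 to 0.72 for the difference between the sexes. Log2 fold changes that turned in sign, all with a library left out, ranged in males from -0.21 to 1.19 for Uqcrh, -0.32 to 1.15 for Ndufb4c, -0.56 to 0.07 for Ndufaf3, -0.75 to 0.23 for Ndufaf6 and -0.37 to 0.07 for Atp5b. In females they ranged from -0.45 to 0.86 for Ndufaf1, 0.0 to 0.59 for Sdha and -1.07 to 0.65 for Atp5s. Of 233 single gene values under alternatives, 224 kept their direction and side. Many of these fits left out a library of the other sex, which could hardly move a comparison within a sex. The gap between the male KO libraries was 0.60 larger in the shortest than in the longest members by Length and 1.05 by coding length.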

Other observations

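The symbol rule left out 9 genes whose names end in -ps. Ndufb1-ps, which RefSeq lists as the protein coding complex I gene Ndufb1, had 161 and 62.3 CPM in male KO, against 81.8 and 76.9 in male WT, and 186 and 100.4 CPM in female KO, against 125 and 127 in female WT. In males the first KO library lay above both WT libraries and the second below both, as in 18 of the 29 accessory subunits of complex I, and the female KO libraries lay on either side of the female WT libraries too. Ndufab1-ps, a processed pseudogene, had 52.1 and 30.5 CPM in male KO, against 33.5 and 32.6 in male WT.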
